A study of Mus musculus with 3 samples.

Results

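The IL-1 family receptors of mouse regulatory T cells are described here through 7 genes, Il1r1, Il1r2, Il1rl1, Il1rap, Il18r1, Il18rap and Sigirr, out of 22457 genes counted. They were taken by name as the receptors for IL-1, IL-18 and IL-33, and each was found by stripping the version from its Ensembl identifier and reading the symbol from GENCODE M21. The cells were primary regulatory T cells from adult mice aged 4 months, for which the labels name a haematopoietic bone marrow cell as origin. No genotype, strain, treatment, sort or pooling of animals is given in the sources used here. PolyA plus RNA was sequenced as 3 libraries, technical replicates 1, 2 and 3 of 1 biological replicate, so there was 1 group and no contrast between conditions, and the spread over libraries says nothing of the spread between animals.

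Receptors of this family carry a cytoplasmic TIR domain and signal through the adaptor MyD88 and IRAK kinases towards NF-kB. A ligand-binding chain (IL1R1 for IL-1, ST2 for IL-33, IL18R1 for IL-18) pairs with an accessory chain (IL1RAP for the IL-1 and IL-33 receptors, IL18RAP for the IL-18 receptor) before it can signal, while IL1R2 binds IL-1 without a signalling tail and acts as a decoy, and SIGIRR dampens signalling. In regulatory T cells, ST2 is known from tissue-resident cells that respond to IL-33, and IL1R2 from activated cells.

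Total counts were 3206781, 3228215 and 2872350 in libraries 1, 2 and 3. Markers of the labelled cell type were present. All 7 of Foxp3, Il2ra, Ctla4, Ikzf2, Tnfrsf18, Cd4 and Cd3e reached 1 CPM (counts scaled to a library total of 1000000) in every library. So did 48.4% of all genes. Foxp3, the lineage factor, had 455, 507 and 432 counts. Libraries 2 and 3 stood apart in genes of other cells. The 10 neutrophil genes summed to 48, 317 and 70 counts in libraries 1, 2 and 3, the 6 erythroid genes to 26, 626 and 453, and the 8 B cell genes to 846, 1089 and 1314. All 8 B cell genes also reached 1 CPM in every library. Their median was 51.6 CPM, against 386 CPM for the 7 markers of the labelled cell type. Levels are given as CPM, and between genes as CPM per kilobase of coding sequence, with the mean ± SD of the 3 libraries (n = 3). Because the RNA came from a bulk sample, fewer cells carrying a transcript and less of it per cell cannot be told apart.

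Transcripts of the receptors that withhold an IL-1 family signal were the most abundant, and that of the signalling IL-1 receptor was close to absent. Of the 7 genes 6 reached 1 CPM in every library, as did 48.4% of all genes, and these 6 also reached 5 CPM. Together Il1r2 and Sigirr made up 77.9 ± 2.88% of the family's level per coding kilobase, the IL-33 and IL-18 binding chains Il1rl1 and Il18r1 16.3 ± 1.85%, and the accessory chains Il1rap and Il18rap 5.77 ± 0.997%. With exon length in place of coding length these shares were 86.0%, 11.0% and 2.98%.

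**Figure D1:**
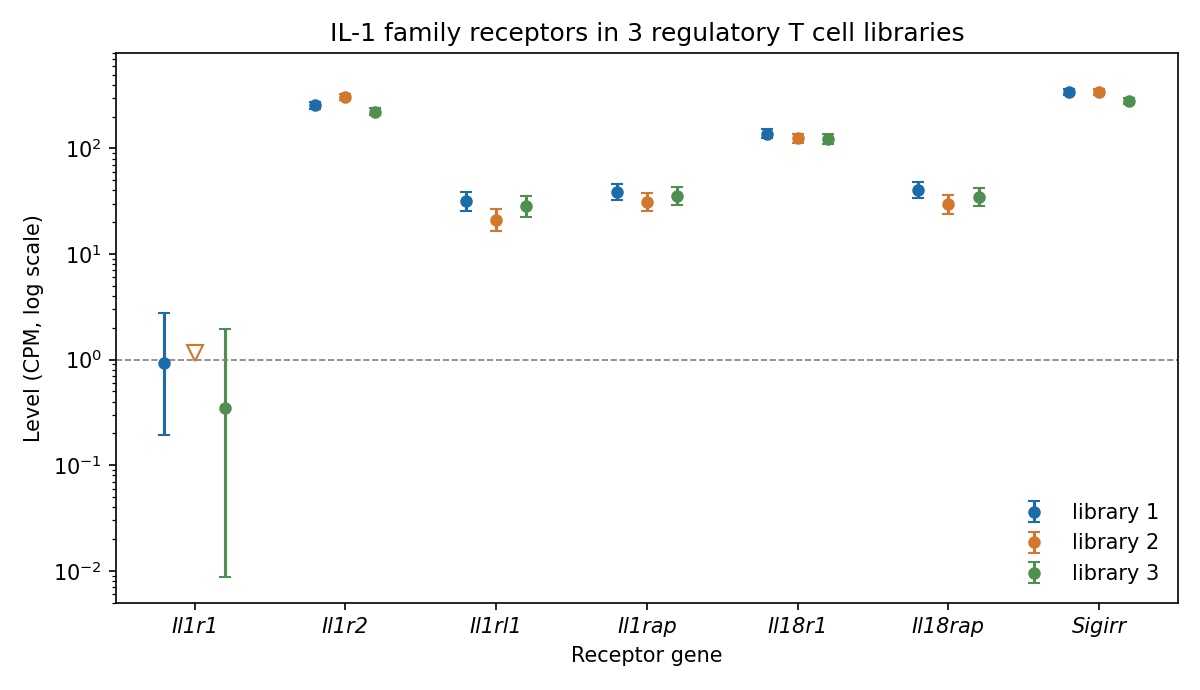
Level of each receptor gene in CPM (log axis) in libraries 1, 2 and 3, with 95% exact Poisson intervals that cover counting error only. The open triangle is the upper limit of 1.14 CPM for Il1r1 in library 2, which had no count, and the dashed line marks 1 CPM: Il1r1 lies below it in all 3 libraries with intervals that cross it, and the other 6 genes lie between 21.1 CPM and 343 CPM.

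Il1r2, the decoy receptor for IL-1, had 820, 982 and 637 counts in libraries 1, 2 and 3, or 256, 304 and 222 CPM. Library 2 was the highest and library 3 the lowest. Its mean was 261 ± 41.4 CPM, or 212 ± 33.7 CPM per coding kilobase, above 94.5% of the 14847 genes that had a count and a coding length. On that scale it stood at 1.82 times the level of Foxp3. The gene (ENSMUSG00000026073.9) lies on the plus strand at chr1:40074079-40125231 (GRCm38, GENCODE M21), and its longest coding sequence of 1230 bases is shorter than the 1728 bases of Il1r1.

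Il1r1, the signalling receptor for IL-1 (ENSMUSG00000026072.8, plus strand, chr1:40225080-40317257), had 3, 0 and 1 counts, too few to order the libraries. In CPM the 3 libraries read 0.936, 0 and 0.348, and the 95% Poisson intervals of library 1 and library 3 ran from 0.193 to 2.73 and from 0.00881 to 1.94 CPM. The floor of 3 counts equals 0.936, 0.929 and 1.04 CPM in the 3 libraries, so expression below about 1 CPM was not detectable at this depth. Over the 3 libraries Il1r2 had 2439 counts and Il1r1 had 4, a ratio of 856 per coding base (95% exact binomial interval 334 to 3144, counting error only). Il1r2 thus supplied 99.7%, 100% and 99.9% of the summed level of these IL-1 binding receptors in libraries 1, 2 and 3.

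Sigirr, the inhibitory single-Ig receptor (ENSMUSG00000025494.7, minus strand, chr7:141091175-141100572), had 1096, 1108 and 804 counts, or 342, 343 and 280 CPM. Libraries 1 and 2 were alike and library 3 was lower. Its mean of 322 ± 36.1 CPM, or 243 ± 27.3 CPM per coding kilobase, exceeded 95.6% of the ranked genes and was the highest of the family. It was 2.09 times the level of Foxp3 per coding kilobase and 16.99 times that of Il1rap (95% exact binomial interval of the pooled counts 15.2 to 19.1).

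Among transcripts of the chains that bind a ligand and signal, that of the IL-18 binding chain led. Il18r1 (ENSMUSG00000026070.11, plus strand, chr1:40465552-40500854) had 441, 403 and 354 counts, or 138, 125 and 123 CPM. The 3 libraries lay close together. It averaged 129 ± 7.82 CPM, or 79.1 ± 4.81 CPM per coding kilobase, above 81.1% of the ranked genes and at 0.680 times the level of Foxp3. Its partner Il18rap (ENSMUSG00000026068.7, plus strand, chr1:40515362-40551705) had 130, 96 and 100 counts, or 40.5, 29.7 and 34.8 CPM, with library 1 highest. Per coding kilobase Il18rap averaged 19.02 ± 2.93 CPM and lay below Il18r1 by a log2 ratio of -2.07 ± 0.16, with -1.94, -2.25 and -2.00 in libraries 1, 2 and 3. The transcript of the accessory chain of the IL-18 receptor was therefore 0.240 times as abundant as that of its binding chain. This is from the pooled counts per coding base (95% exact binomial interval 0.212 to 0.272), and protein was not measured. GENCODE M21 also holds shorter Il18r1 coding sequences of 1116 and 801 bases, which a count per gene cannot separate.

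Il1rl1, which encodes the IL-33 receptor ST2, was present at a low level. The gene (ENSMUSG00000026069.11, plus strand, chr1:40429570-40465415) had 101, 68 and 81 counts, or 31.5, 21.1 and 28.2 CPM. Library 2 was the lowest. The mean was 26.9 ± 5.33 CPM, or 15.6 ± 3.09 CPM per coding kilobase, above 51.7% of the ranked genes and close to the median of 14.1 CPM per coding kilobase over them. Its level was 0.196 times that of Il18r1 in the pooled counts per coding base (95% exact binomial interval 0.171 to 0.225), and the log2 ratio was -2.21, -2.66 and -2.22 in libraries 1, 2 and 3. GENCODE M21 holds Il1rl1 coding sequences of 1701 and 1011 bases. Soluble and membrane forms of ST2 are known, and a count per gene cannot separate them.

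Il1rap, the accessory chain that the IL-1 and IL-33 receptors share (ENSMUSG00000022514.10, plus strand, chr16:26581704-26730117), had 125, 101 and 102 counts, or 39.0, 31.3 and 35.5 CPM. The libraries overlapped within their counting intervals. It averaged 35.3 ± 3.85 CPM, or 14.4 ± 1.57 CPM per coding kilobase. Il1rl1 and Il1rap stood at nearly the same level, with a log2 ratio of 0.10 ± 0.15 (0.20, -0.07 and 0.17 in libraries 1, 2 and 3) and a pooled ratio of 1.08 (95% exact binomial interval 0.913 to 1.28). The sign of this small ratio turned without the correction for length (-0.40). GENCODE M21 places the antisense gene Gm20319 on the other strand of Il1rap, where they share 552 exon bases. The strand setting of the counting is not given in the sources used here, so reads from there cannot be told apart.

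Ordered by level per coding kilobase, the family ran Sigirr, Il1r2, Il18r1, Il18rap, Il1rl1, Il1rap and Il1r1. The ranges over the 3 libraries of Sigirr (212 to 259.6 CPM per coding kilobase) and Il1r2 (180.2 to 247 CPM per coding kilobase) overlapped, although Sigirr was the higher of the pair in each library. With exon length Il1r2 came first at 137 and Sigirr second at 106 CPM per exon kilobase. The range of Il1rl1 overlapped those of its neighbours Il18rap, which was higher in each library, and Il1rap, which was lower in libraries 1 and 3. With the longest single coding sequence of each gene, an alternative chosen after seeing the data, Il1rap came before Il1rl1. The steps between Il1r2 and Il18r1 (2.68-fold), between Il18r1 and Il18rap (4.16-fold) and between Il1rap and Il1r1 (58.1-fold, on 4 counts) had no overlap between libraries.

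On chromosome 1, 5 of the receptors lie in a row with Il1rl2 among them. The block spans 478 kb and holds 6 protein-coding genes, all on the plus strand, in the order Il1r2, Il1r1, Il1rl2, Il1rl1, Il18r1 and Il18rap. Il1rl2, the receptor chain for IL-36, had 22, 9 and 12 counts and averaged 2.67 ± 1.20 CPM per coding kilobase. The block thus opened with its highest gene, was lowest at Il1r1 and Il1rl2, and was intermediate at its other end. Only 136 bases separate the end of Il1rl1 from the start of Il18r1, although Il18r1 stood higher than Il1rl1 in every library. In M21 none of these 5 receptors shares exon bases with another annotated gene.

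**Figure D2:**
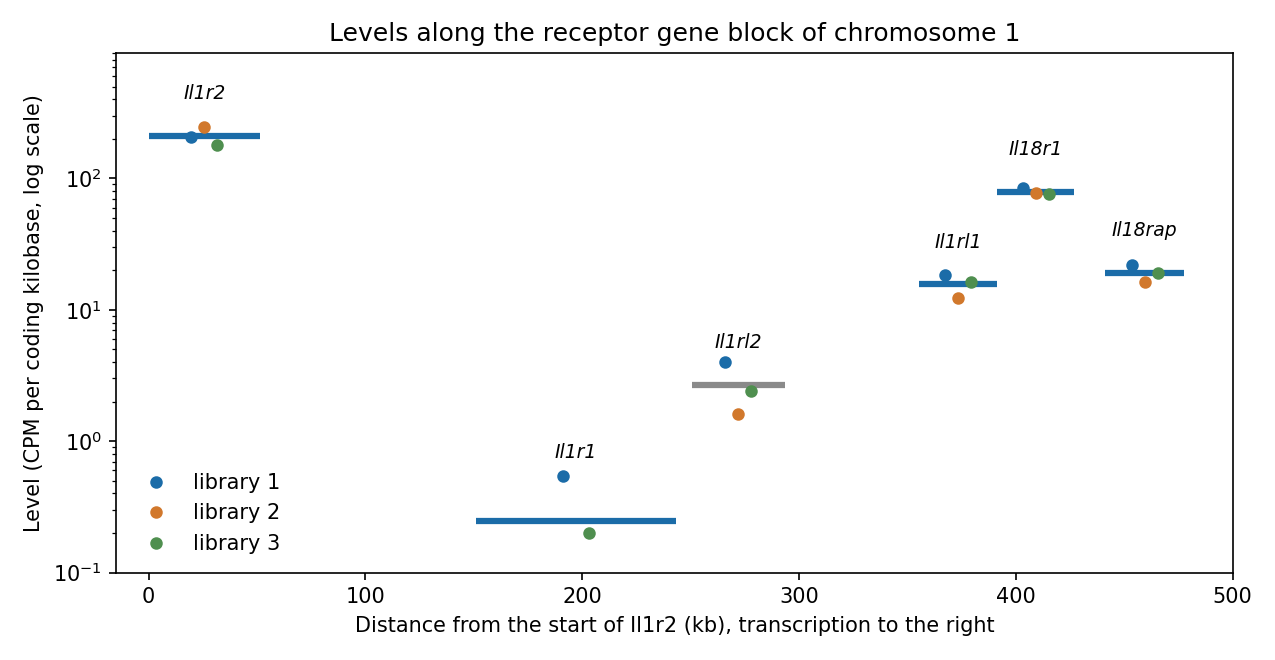
Level of the 6 protein-coding genes of the chromosome 1 block in CPM per coding kilobase (log axis) against the distance from the start of Il1r2. Each line spans a gene at its mean, the grey line being Il1rl2, and points are the 3 libraries; library 2 has no point at Il1r1, which had no count there. Levels run between 212 at Il1r2 and 0.248 at Il1r1.

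The promoter windows of Il1r2, Il1r1 and Il1rl1 are shown because Il1r2 and Il1r1 had the highest and the lowest level of the block and Il1rl1 encodes the IL-33 receptor, a choice made after their values were seen. Il1r1 and Il1rl1 each have 2 annotated starts. RefSeq promoters (GRCm38.p6) were found for 6 of the 7 receptors. Each line gives the 250 bases before an annotated start on the plus strand, and capitals mark matches on either strand to short words. The GATA word was spelled AGATAA, with T also allowed as its first base. The forkhead word was spelled TGTTTAC, with T also allowed as its last base. The E-box was searched as CACGTG and the Runx word as TGTGGT. The AP-1 word was TGANTCA, where N is any base, and the NF-kB word was GGGA followed by any 3 bases and then TCC. The windows are, in order, chr1:40085843-40086092, chr1:40224830-40225079, chr1:40266336-40266585, chr1:40429320-40429569 and chr1:40439379-40439628.
Il1r2: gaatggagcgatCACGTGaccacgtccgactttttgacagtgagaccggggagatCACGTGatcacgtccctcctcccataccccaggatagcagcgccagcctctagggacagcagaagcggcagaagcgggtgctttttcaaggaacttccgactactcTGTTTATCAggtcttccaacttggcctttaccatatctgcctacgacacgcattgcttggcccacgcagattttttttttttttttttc
Il1r1, start 1: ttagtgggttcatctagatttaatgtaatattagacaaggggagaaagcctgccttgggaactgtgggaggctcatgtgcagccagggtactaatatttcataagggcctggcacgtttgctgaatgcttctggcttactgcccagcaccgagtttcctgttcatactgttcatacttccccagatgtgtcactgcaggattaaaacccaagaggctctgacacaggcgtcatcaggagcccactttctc
Il1r1, start 2: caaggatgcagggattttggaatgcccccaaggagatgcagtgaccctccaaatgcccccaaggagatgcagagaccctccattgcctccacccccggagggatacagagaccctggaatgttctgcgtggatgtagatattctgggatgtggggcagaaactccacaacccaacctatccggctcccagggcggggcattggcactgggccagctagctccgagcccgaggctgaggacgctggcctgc
Il1rl1, start 1: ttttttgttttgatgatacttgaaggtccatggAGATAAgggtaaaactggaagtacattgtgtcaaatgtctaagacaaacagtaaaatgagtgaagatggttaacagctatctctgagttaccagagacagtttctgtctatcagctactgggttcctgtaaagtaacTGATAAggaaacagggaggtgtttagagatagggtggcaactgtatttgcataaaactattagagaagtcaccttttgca
Il1rl1, start 2: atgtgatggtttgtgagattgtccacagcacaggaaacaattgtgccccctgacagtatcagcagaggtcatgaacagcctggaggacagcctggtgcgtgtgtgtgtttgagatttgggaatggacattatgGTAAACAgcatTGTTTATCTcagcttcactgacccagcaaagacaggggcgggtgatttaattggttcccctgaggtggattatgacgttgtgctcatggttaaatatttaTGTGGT

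The Il1r2 window held 2 E-box words, 1 GATA word and 1 forkhead word. Among all 32851 promoter windows of the same length, 6.02% held the E-box word, 16.6% a GATA word and 7.1% a forkhead word. Neither Il1r1 window held any of the 6 motifs. The first Il1rl1 window held 2 GATA words, and the second held 1 GATA, 2 forkhead and 1 Runx word, the last of which is found in 14% of all windows. In Il1r2 and at the second start of Il1rl1 a GATA word overlapped a forkhead word, which 0.545% of all windows show. This overlap was picked out after the matches were seen. AP-1 and NF-kB words, found in 6.75% and 3.86% of all windows, did not occur in the 10 windows of the 6 receptors. A match describes letters only and says nothing of binding.

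Whether the technical replicates differed beyond counting error was tested for each gene with a chi-square test of the 3 counts against Poisson expectation, adjusted by Benjamini-Hochberg over 10282 genes. Of the 6 receptors tested 2 passed (33.3%), Il1r2 and Sigirr, against 27.6% of all genes tested, so the family's share lay near the background. Il1r1 had too few counts to be tested. For Il1r2, highest in library 2 and past the test as were 8.71% of all genes tested, library 2 exceeded library 3 by a factor of 1.34, with a 95% exact binomial interval of 1.21 to 1.48 and an adjusted p = 1.22e-06 (chi-square test). For Sigirr, highest in library 1 after TMM scaling and past the test as were 11.1%, library 1 exceeded library 3 by a factor of 1.22, with a 95% exact binomial interval of 1.12 to 1.34 and an adjusted p = 0.000228 (chi-square test). Both ratios are of the highest to the lowest library, picked from the counts, so their intervals overstate the certainty. Each adjusted p is of the test over 3 libraries, not of that pair. Past the test and highest in library 3 were 7.75% of all genes and 0 receptors, and 9.98% passed with a ratio of at least 1.5, again with 0 receptors. Without library 2 the ratio of library 1 to library 3 was 1.16 for Il1r2 (adjusted p = 0.0582), which left Sigirr alone past the threshold (adjusted p = 0.000575), 1 of 6 receptors against 9.38% of all genes. Sigirr did not pass without library 3 (adjusted p = 0.854), when 19.5% of all genes did, and both genes passed without library 1, when 16.5% did. With a negative binomial model that allowed the 12.5% coefficient of variation common to all genes, estimated by edgeR from these libraries, 0 of 6 receptors passed and 0 had an unadjusted p under 0.05. By that model 0.904% of all genes passed.

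In counts scaled by library size the other 4 receptors were highest in library 1 and lowest in library 2, but none passed the test over 3 libraries. The ratio of library 1 to library 2 was 1.53 for Il1rl1 (adjusted p = 0.0686 by the chi-square test, with a 95% exact binomial interval of the ratio of 1.12 to 2.12), 1.40 for Il18rap (1.07 to 1.84, adjusted p = 0.117), 1.28 for Il1rap (0.976 to 1.68, adjusted p = 0.323) and 1.13 for Il18r1 (0.985 to 1.30, adjusted p = 0.271). These pairs of libraries were also picked from the counts, so an interval that leaves out 1 is no test. The 4 adjusted p-values are of the test over 3 libraries. Without library 3, Il1rl1 passed (ratio 1.52, adjusted p = 0.0388, chi-square test over libraries 1 and 2). With 250 counts over the 3 libraries, counting error alone gives Il1rl1 a coefficient of variation of 11.0%, and 21.03% was observed. For Il18r1 these were 5.004% and 6.93%.

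**Figure D3:**
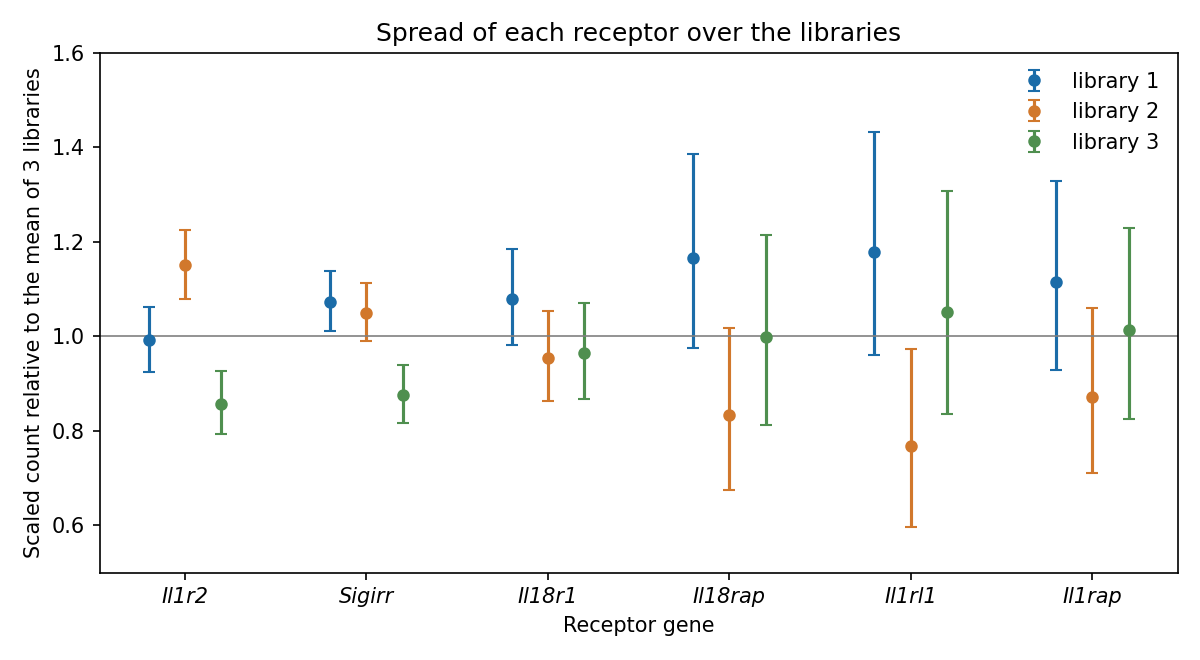
Scaled count of each of 6 receptors in libraries 1, 2 and 3 relative to its mean over the libraries, with 95% exact Poisson intervals. Il1r2 ranges between 0.858 in library 3 and 1.15 in library 2, and Sigirr is lowest in library 3 at 0.876. The other 4 receptors are lowest in library 2, between 0.768 for Il1rl1 and 0.955 for Il18r1, with wide intervals for the low genes.

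Depth and the contents of the libraries were read beside these differences. Il1r2 and Sigirr reached 0.660 and 0.758 counts per coding base. Among all genes at 0.5 to 1 counts per coding base, unscaled counts of library 3 lay below those of library 1 by a median log2 ratio of -0.11, while the totals gave -0.16 and genes under 0.1 gave -0.21. Il1r2 had 820 and 637 unscaled counts in libraries 1 and 3, and Sigirr 1096 and 804. Divided by the totals, these were 256 and 222 CPM for Il1r2 and 342 and 280 CPM for Sigirr. Genes at 0.2 to 0.5, the range of Il18r1, gave -0.17. The other 3 receptors tested stood under 0.1 counts per coding base. Library 3, where scaled counts of Il1r2 and Sigirr were lowest, was the shallowest, and the part of depth in their differences was not tested.

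Il1r2 is also a gene of neutrophils, and the neutrophil list was highest in the same library. It summed to 98.2 CPM in library 2, against 15.0 and 24.4 CPM in libraries 1 and 3, with the granule gene Ngp at 1, 96 and 3 counts and S100a8 at 0, 77 and 11 counts in libraries 1, 2 and 3. The receptor genes that define neutrophils were near 0, with 7, 3 and 3 counts for Csf3r and 0, 0 and 1 for Cxcr2. Of the 10 neutrophil genes 1, Mmp9, reached 1 CPM in every library, against 48.4% of all genes. Il1r2 stood at 256 CPM in library 1, where the whole neutrophil list summed to 15.0 CPM. The part of neutrophil RNA in the level of Il1r2, or in its library difference, was not tested.

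Other cells that carry these receptors were checked in the same way. Mast cells and group 2 innate lymphoid cells are rich in Il1rl1. Of 9 mast cell and basophil genes 6 had no count in any library (Ms4a2, Fcer1a, Mcpt4, Mcpt8, Tpsb2 and Gata2), and the list summed to 10.9, 12.4 and 12.9 CPM in libraries 1, 2 and 3. The innate lymphoid list summed to 29.3, 23.2 and 25.8 CPM, led by Hpgds and Il17rb, while Il13 had no count and Il5 had 1. Both sums are of the order of the 31.5, 21.1 and 28.2 CPM of Il1rl1 itself, and the part of these cells in its level was not tested. NK cells carry Il18r1 and Il18rap. The NK cell list summed to 253, 318 and 329 CPM in libraries 1, 2 and 3, most of it from Ccl5 (132 ± 15.7 CPM) and Nkg7 (116 ± 14.0 CPM), which T cells also express. The cytotoxic granule gene Prf1 had 80, 86 and 85 counts. Gzma, another granule gene, had 17, 21 and 58 counts (3.80-fold, adjusted p = 7.48e-08, chi-square test), and the adaptor gene Tyrobp had 11, 22 and 34 (3.44-fold, adjusted p = 0.00398, chi-square test). Of 5 genes of the list tested 4 passed, against 27.6% of all genes. Among its receptor and lineage factor genes, Ncr1 had 0, 6 and 4 counts, Klrb1c 10, 12 and 7, and Eomes 4 in each library. Il18r1 had 441, 403 and 354 counts and Il18rap 130, 96 and 100, and the part of NK cell RNA in them was not tested. Of 8 monocyte and macrophage genes 6 reached 1 CPM, against 48.4% of all genes. The list summed to 86.1, 88.6 and 113 CPM in libraries 1, 2 and 3. It was led by Ms4a6c with 128, 188 and 135 counts, and Lyz2 had 20, 29 and 38. Of 6 genes tested 4 passed, against 27.6% of all genes, among them Csf1r with 50, 19 and 46 counts and Cd68 with 37, 23 and 46, while Fcgr1 had 1, 1 and 0. B cell genes were highest in library 3, where Il1r2 and Sigirr were lowest, and the part of a changed mixture of cells in this was not tested.

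The ligands of the receptors were mostly absent, while the signalling chain below them was expressed. Of 11 genes for ligands and soluble binders 3 reached 1 CPM in every library, against 48.4% of all genes, and 5 had no count in any library (Il36a, Il36b, Il36g, Il36rn and Il1f10). The highest were Il18 at 7.82 ± 1.01 CPM, the IL-18 binding protein gene Il18bp at 5.73 ± 0.823 CPM and the IL-1 receptor antagonist gene Il1rn at 2.47 ± 0.614 CPM. Il1b had 0, 0 and 2 counts and Il33 had 0, 0 and 1, so neither exceeded the floor. Il1a had 2, 6 and 6 counts, above the floor of 3 counts in libraries 2 and 3 only. Of the remaining receptor genes of the family, Il1rapl1 had no count and Il1rapl2 had 3, 1 and 0.

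Of 20 genes of TIR signalling 19 were at or above 1 CPM throughout, as were 48.4% of all genes. The list's median level was 25.6 CPM per coding kilobase, against 14.1 over all ranked genes. The adaptor gene Myd88 stood at 105 ± 0.564 CPM per coding kilobase, the kinase gene Irak4 at 64.4 ± 7.74 and the NF-kB pathway kinase gene Ikbkb at 171 ± 20.9 CPM per coding kilobase. In the chi-square test over libraries 4 of 19 passed, 3 of them highest in library 1, against 27.6% and 11.1% of all genes. One of those 3, Mapk8, a stress kinase gene, had 121, 70 and 79 counts (1.79-fold, adjusted p = 0.00289, chi-square test). Among 11 genes that restrain these pathways 10 reached 1 CPM, against 48.4% of all genes. The highest were Nfkbia at 598 ± 9.77, Tank at 356 ± 27.6 and the deubiquitinase gene Usp4 at 174 ± 7.74 CPM per coding kilobase. In this list 3 of 10 passed the test, against 27.6% of all genes, with 2 highest in library 1 and 1 in library 2. Ligand processing genes were present too: Pycard, the inflammasome adaptor gene, stood at 369 ± 45.8, Casp1, the gene of the enzyme that matures IL-1 beta and IL-18, at 208 ± 30.6 and Casp4 at 173 ± 18.6 CPM per coding kilobase. In that list 8 of 9 genes reached 1 CPM, against 48.4% of all genes. The test was passed by 6 of 8, against 27.6% of all genes, with 3 highest in library 1 and 3 in library 2, against 11.1% and 8.71%. Naip5, among them, had 278, 150 and 208 counts (1.91-fold, adjusted p = 2.57e-08, chi-square test), and genes of the Naip family are near-identical copies whose counts are uncertain.

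Genes known to go with ST2 in tissue regulatory T cells were all detected, at widely differing levels. All 14 were at or above 1 CPM throughout, as were 48.4% of all genes, and their median level was 98.2 CPM per coding kilobase. The highest were Tnfrsf4 (OX40) at 614 ± 25.4, Tnfrsf9 (4-1BB) at 297 ± 13.6 and the transcription factor gene Batf at 289.5 ± 36.4 CPM per coding kilobase. The lowest were Pparg at 1.55 ± 0.802, Nfil3 at 5.49 ± 2.64 and Areg at 6.45 ± 1.39 CPM per coding kilobase. Pparg had 12, 5 and 5 counts in libraries 1, 2 and 3. Il1rl1 itself, at 15.6 CPM per coding kilobase, lay below 10 of these 14 genes. The test over libraries was passed by 6 of 13, with 5 highest in library 2, against 27.6% and 8.71% of all genes. Among the 6, Nfil3, a transcription factor gene, had 23, 37 and 12 counts (2.68-fold, adjusted p = 0.0289, chi-square test).

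Helper cell genes that accompany these receptors in other T cells were mixed. IL1R1 is known from type 17 helper cells. Of 8 genes of that type 4 reached 1 CPM in every library, as did 48.4% of all genes. Il17a, Il17f and Il22 had no count, as Il1r1 had almost none, while Ccr6 stood at 127 ± 6.11 and Maf at 24.4 ± 0.800 CPM per coding kilobase. The IL-18 receptor is known from type 1 helper cells. Of 7 genes of that type 6 reached 1 CPM, against the same 48.4%. The highest were Cxcr3 at 241 ± 22.1, Stat4 at 232 ± 7.63 and Il12rb1 at 37.9 ± 6.96 CPM per coding kilobase. The others were low: Ifng had 18, 31 and 15 counts, Tbx21 13, 21 and 15, Il12rb2 15, 11 and 10, and Hlx 0, 1 and 1. In this list 2 of 6 passed the test over libraries, against 27.6% of all genes, both highest in library 2. Stromal and endothelial cells, which carry IL1R1, left 0 of 8 genes at 1 CPM in every library, against 48.4% of all genes.

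**Figure D4:**
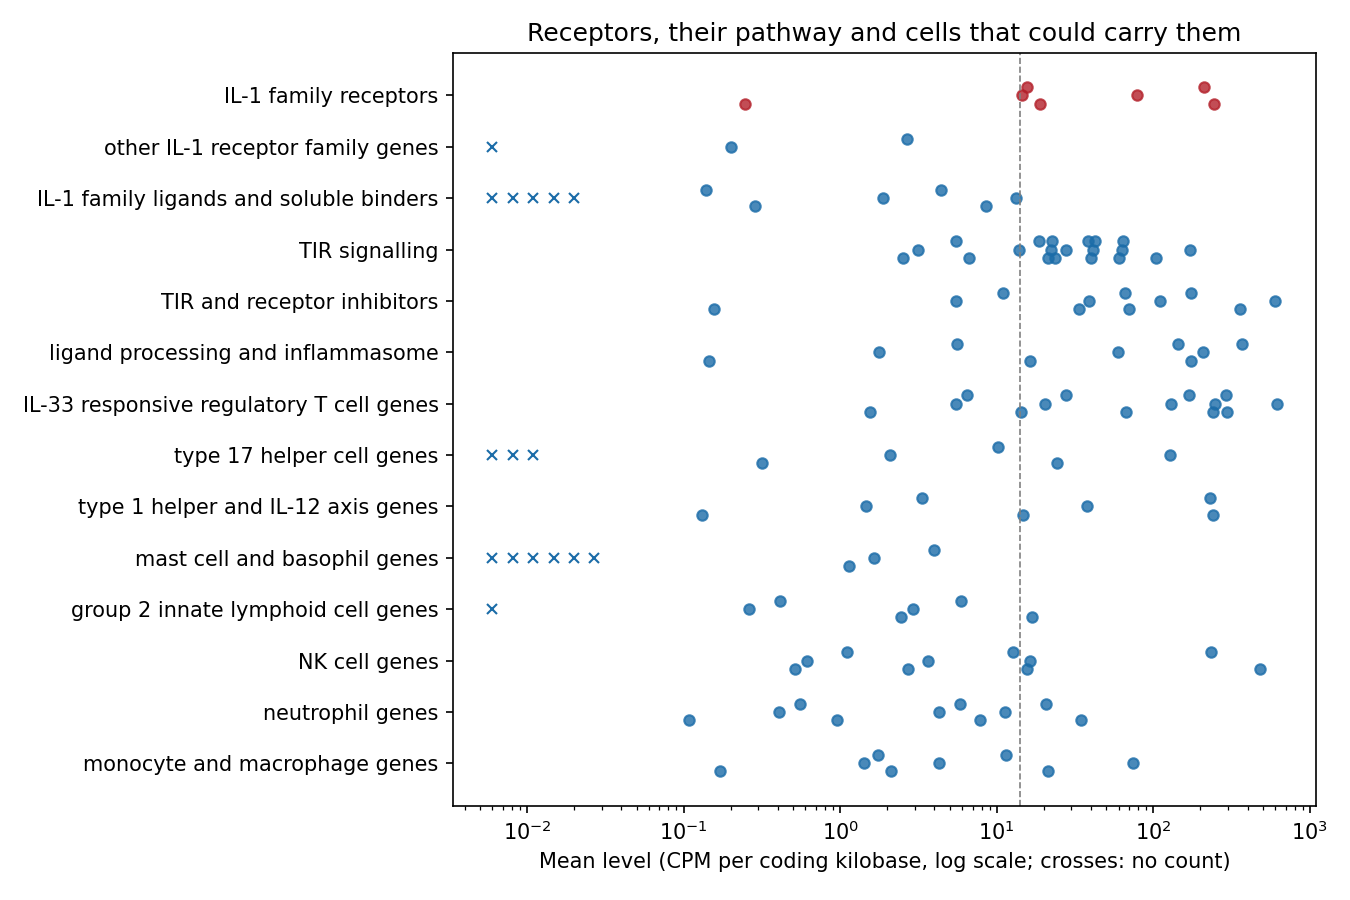
Mean level over 3 libraries in CPM per coding kilobase (log axis) of each gene in the receptor family, in red, and in lists of its pathway and of other cells, in blue. Crosses at the left edge, at no value of the axis, are genes with no count in any library, and the dashed line is the median of 14.1 over all genes with a count. Il1r1 is the only receptor of the 7 clearly below the median, and most mast cell genes have no count.

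The listed genes nearest to each receptor in level per coding kilobase give a sense of scale. For Il1r2 these were Casp1 and Ikzf2 (Helios), at 208 and 203, and for Sigirr Cxcr3 and Klrg1, at 241 and 240.5 CPM per coding kilobase. Il18rap lay next to Cd22 and Mapk14 (19.05 and 18.5), Il1rap next to Dusp4 and Ifng (14.4 and 14.7), and Il1rl1 next to Tyrobp and Naip5 (15.5 and 16.3). Il18r1 lay between Hbb-bs, which had no count in library 1, and Cd79a (77.3 and 81.1). By the distance of log2 scaled counts centred over the 3 libraries, the listed genes most like Il1r2 were Casp1 (0.0390) and Il12rb1 (0.0785), and those most like Sigirr were Rora (0.0635) and Cxcr3 (0.0694). These likenesses rest on 3 libraries and are descriptions.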

How the data were processed

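Counts per gene were deposited by the authors as raw whole numbers, 1 file per library, made from alignments to mm10 with GENCODE M4 gene models, per the file descriptions deposited beside them. For the aligner, counting program, strand setting and duplicate removal, each was not given in the sources used here. GENCODE M21 (GRCm38) gave symbols, coordinates and lengths: 22195 of 22457 identifiers matched, and the others held 0.117% of the counts. CPM divides by the library total, and coding length is the union of annotated coding bases.

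To compare libraries, the 3 counts of each gene were set against a Poisson expectation by a chi-square test (2 degrees of freedom, mean count of at least 10, adjusted p of 0.05 or less). Expected counts followed library totals multiplied by TMM factors of 0.990, 1.02 and 0.993, which edgeR 4.0.16 computed (R 4.3.3). P-values measure the spread between technical replicates. Pooled ratios carry 95% exact binomial intervals, counts of 0 a floor of 3, and both cover counting error only.

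The 7 receptors and the 17 other lists (157 entries, 1 not matched, Ahsp) were chosen with earlier results of these data known. All receptors were named, and of each other list the 3 highest genes, genes past the test at 1.5-fold or more and genes without a count; others were named after their values were seen, and 1 gene the rule names is not reported here. A planned comparison of receptor protein sequences was not run. As alternatives the test was rerun with size factors from DESeq2 1.42.0, with unadjusted totals, with lower count minimums, with a negative binomial error and after thinning, and levels with other lengths, with pseudocounts of 0.5 and 5 counts, other detection thresholds and leaving out each library. Tests ran under scipy 1.17.1 and pandas 2.3.3 in Python 3.11.15, and figures under matplotlib 3.10.9.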

Additional observations from a re-analysis of the deposited data

How the results depend on the processing

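The number of receptors differing between libraries was 2, and 0 under the negative binomial model. It ranged from 1 to 2 when a library was left out, with 1 without library 2. With exon length the log2 ratio was 10.33 for Il1r2 to Il1r1, -2.37 for Il18rap to Il18r1, -2.79 for Il1rl1 to Il18r1, 0.32 for Il1rl1 to Il1rap, 5.09 for Sigirr to Il1rap and 0.74 for Il18rap to Il1rap. In the same order, coding length had given 9.08, -2.07, -2.36, 0.10, 4.08 and 0.40. Without a correction for length it was -1.89 for Il18rap to Il18r1 and 3.19 for Sigirr to Il1rap, and it turned sign for Il1rl1 to Il1rap (-0.40) and Il18rap to Il1rap (-0.015). With 5 counts added it was 7.51 for Il1r2 to Il1r1, 3.81 for Il1rl1 to Il1r1 and -6.11 for Il1r1 to Il18r1, pairs that rest on 4 counts of Il1r1. Without added counts these 3 ratios were 9.08, 5.31 and -7.67. There the floor of 3 counts stood in for the 0 of Il1r1 in library 2, so they are bounds. In each of these the length or the added count is what was changed. The number of receptors detected was 6 under every alternative run. No paired analysis was possible because the labels give 1 group. The technical replicates of 1 biological replicate give no spread between animals, and levels near 1 CPM were not resolved at this depth.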
